A study of Mus musculus with 4 samples.

Results

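Endoplasmic reticulum (ER) chaperone genes were followed in Hepa 1-6, a line of murine hepatocellular carcinoma cells, as RNA in the lysate and as RNA recovered with an antibody to YTHDF1. The 10 genes were chosen by name from what their proteins do, with earlier results of these data known. They were found by Ensembl ID among the 53465 genes of the count table, and all 10 passed the filter on low counts. They are Hspa5, Hsp90b1, Hyou1, Dnajb9, Calr, Canx, Pdia3, Pdia4, Pdia6 and Xbp1. Cells carried either a control guide, which the labels give as WT, or one targeting Usp5 (labelled Usp5 Knockdown), whose product is a deubiquitinating enzyme. The lysate of each line gave an input (10% of its volume) and, from the remainder, an RNA immunoprecipitate (RIP). This gave 4 groups of 1 library each: control input, Usp5 guide input, control RIP and Usp5 guide RIP. Whether a line is 1 clone or a pool is not given in the sources used here, and both lines are Hepa 1-6 cells. No precipitate with a control antibody was used here, so RNA held by the antibody's target and RNA held by the beads cannot be told apart.

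Proteins bound for secretion or for membranes enter the ER as they are made, and chaperones there fold them. Hspa5 (BiP) binds unfolded chains, calreticulin and calnexin hold chains through their sugars, and the protein disulfide isomerases form and exchange disulfide bonds. When unfolded protein builds up, sensors in the ER membrane switch on the unfolded protein response, in which the transcription factors ATF6 and XBP1 raise chaperone genes through ER stress elements in their promoters. YTHDF1 is a cytoplasmic protein that binds mRNA carrying N6-methyladenosine, while mRNAs of ER proteins are translated by ribosomes on the ER membrane. Hepatocytes secrete much protein and keep these chaperones at high levels.

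An element found in part of these promoters is shown first. The rule that chose the genes did not use it. Chaperone genes are known to be raised through this element, so its presence here is background and not an independent result. Promoter sequences (250 bases before to 50 bases after the annotated start, RefSeq, GRCm38.p6) were found for 9 of the 10 genes; Hyou1 had no entry in the table. The ER stress element was searched on both strands as CCAAT, then 9 bases of any kind, then CCACG. It was present in 5 of the 9 promoters, those of Hspa5, Hsp90b1, Calr, Canx and Pdia6, and in 39 of all 32851 promoters of this length (0.119%). Hsp90b1 had 2 elements, and it was the 1 promoter of the table with more than 1. These letters were not found in the windows of Pdia3, Pdia4, Dnajb9 and Xbp1. A match is a stretch of letters and not a measured binding site. The stretches below run 5′ to 3′ on the strand of the gene, all before its start, with the element in capitals.
Hspa5, chr2:34772005-34772063, plus strand: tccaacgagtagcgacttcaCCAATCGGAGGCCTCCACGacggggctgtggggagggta
Hsp90b1, chr10:86705513-86705676, minus strand: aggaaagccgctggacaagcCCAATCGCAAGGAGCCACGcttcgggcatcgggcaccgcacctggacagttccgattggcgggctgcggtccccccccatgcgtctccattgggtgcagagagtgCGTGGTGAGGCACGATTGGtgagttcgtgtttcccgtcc
Calr, chr8:84847055-84847113, minus strand: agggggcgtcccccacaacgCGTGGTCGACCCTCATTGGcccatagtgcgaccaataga
Canx, chr11:50325780-50325838, minus strand: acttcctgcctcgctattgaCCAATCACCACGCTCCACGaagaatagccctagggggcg
Pdia6, chr12:17266471-17266529, plus strand: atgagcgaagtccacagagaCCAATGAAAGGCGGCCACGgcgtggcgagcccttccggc

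The elements lay between 47 and 212 bases before the start. That of Hspa5 was nearest to it, from 65 to 47 bases before. Calr and the nearer element of Hsp90b1 had the reverse orientation, which reads CGTGG, 9 bases, ATTGG.

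**Figure D1:**
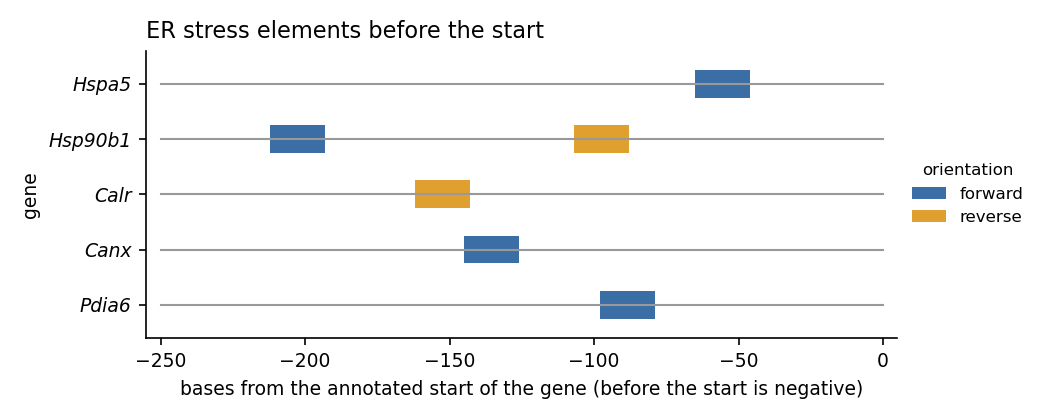
Position of each ER stress element before the annotated start of the 5 genes whose promoter held it (x axis, bases from the start; bars span the 19 bases of an element, coloured by orientation). Hsp90b1 has 2 elements, from 212 and from 107 bases before the start, and the others have 1.

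The libraries held 30804293 counts (control input), 31751069 (Usp5 guide input), 33941019 (control RIP) and 29898171 (Usp5 guide RIP). The 10 genes together took 0.777% of the counts in the control input (95% Wilson interval 0.774 to 0.780) and 0.735% in the Usp5 guide input (0.732 to 0.738). In the RIP libraries they took 0.471% (0.469 to 0.473) and 0.465% (0.463 to 0.468). Levels below are CPM, counts scaled to a common library size, after TMM normalisation, which sets the scale by the bulk of genes. Transcript lengths were not given, so levels are compared between libraries and not between genes. Per-gene counts ranged from 222 to 81366 reads. With 1 library per group, no test compares 1 library with another. Counting intervals (95%) cover counting error only, and PCR copies of a cDNA molecule could not be recognised. Libraries scattered far more than counting error: in the abundance classes of the 10 genes the squared deviation between libraries was 56.8 to 749 times the binomial variance in the inputs and 16.8 to 209 times in the RIP libraries. Intervals widened by these values are therefore given with each log2 ratio and are called scatter intervals. The scatter was measured between the lines and so includes any change with the guide.

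**Figure D2:**
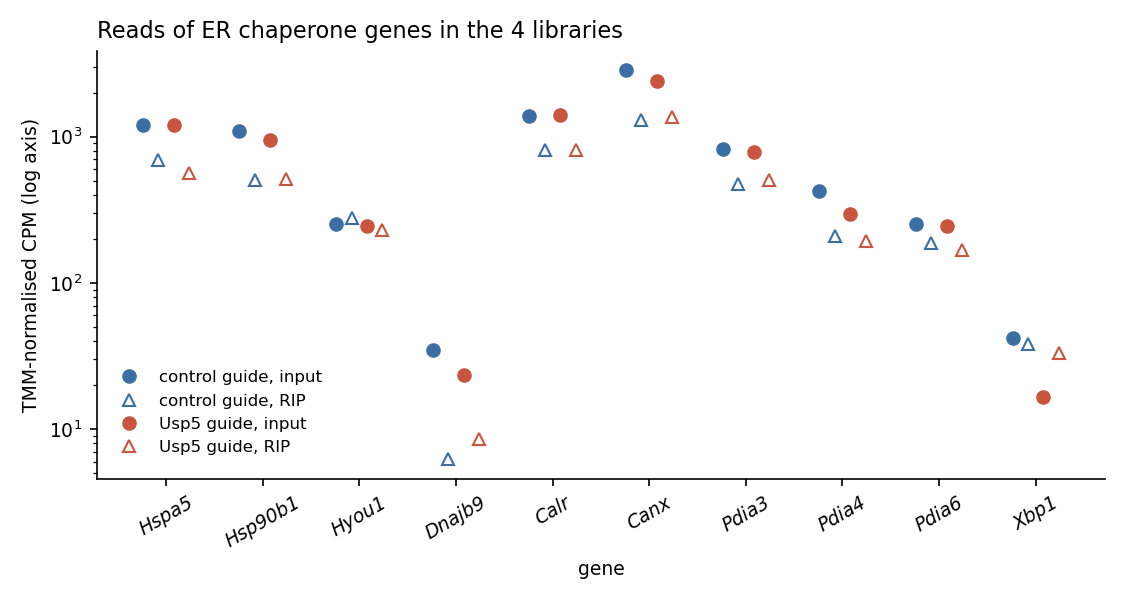
TMM-normalised CPM (y axis, log scale) of the 10 genes in each of the 4 libraries; circles are inputs and triangles RIP libraries, blue for the control guide and red for the Usp5 guide, 1 library each. For 8 genes both triangles lie below both circles, and for Hyou1 and Xbp1 they do not. The share of all genes with this pattern was not counted, so the 8 genes are not set against a background.

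RIP was set against input to ask whether the YTHDF1 antibody recovered these RNAs in proportion to their level. ER chaperone RNAs were mostly under-represented in the precipitate. Over both lines, 8 of the 10 genes were lower in RIP than in input by 1.40-fold (Pdia6) to 3.92-fold (Dnajb9), and Hyou1 and Xbp1 did not pass the test (edgeR's quasi-likelihood test with the line as a block, 4 libraries, 1 residual degree of freedom, Benjamini-Hochberg adjusted p under 0.05 over 12920 genes). No member was higher by this test. Its replicates are 2 lines that differ in guide, so a change of enrichment with the guide counts as error. With 1 lysate per line, the spread between cultures of a line was not measured. The p-values of the test draw mainly on a spread shared over genes (9.25 prior degrees of freedom against 1 residual). Of all genes tested, 11.3% were lower and 10.3% higher (1462 and 1325 genes). With library totals in place of TMM factors these were 959 and 1675 genes, and 7 members were lower. Calls in both directions were more frequent among abundant genes. Of the 1722 genes at a mean log2 CPM of 7 or more, 33.0% were lower and 21.4% higher. These include 8 of the members, of which 7 were lower. In the classes of 9 to 10 and of 10 or more, 36.5% and 48.1% of genes were lower. These classes hold 3 and 2 members, all of them lower. The median log2 RIP over input of the 10 genes was -0.81 in control and -0.72 in Usp5 guide cells, beside 0.03 and 0.02 over all genes and -0.17 and -0.12 over the genes at 7 or more. The normalisation sets the median of all genes near 0, so the ratios are relative to other RNAs.

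By a rule of size without a test (at least 2-fold, counting interval free of 1), 4 members were lower in control RIP (Hsp90b1, Dnajb9, Canx and Pdia4) and none higher, where 15.0% of all genes were lower and 18.4% higher. In Usp5 guide cells 2 members were lower (Hspa5 and Dnajb9) and Xbp1 was higher, where 13.7% of all genes were lower and 15.9% higher. The share of members lower was thus above the background in control cells and near it in Usp5 guide cells. With library totals, 1 member (Dnajb9) was 2-fold lower in each line, and the genes lower and higher were 1496 and 2958 in control cells, in place of 1944 and 2375, and 1425 and 2432 in Usp5 guide cells, in place of 1771 and 2058. The scatter intervals of 8 members excluded 0 on the low side in each line, as did those of 13.8% of all genes in control and 11.8% in Usp5 guide cells. Among genes at a mean log2 CPM of 7 or more these shares were 34.8% and 30.8%.

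Among the large chaperones, Hspa5 (ENSMUSG00000026864, chr2:34772090-34776529), the Hsp70 of the ER lumen, had 1207 CPM in the control input, 1209 in the Usp5 guide input, 689 in the control RIP and 569 in the Usp5 guide RIP. Both RIP libraries lay below both inputs, a pattern whose share over all genes was not counted. Its log2 ratio of RIP over input was -0.81 in control cells (scatter interval -1.18 to -0.44) and -1.09 in Usp5 guide cells (-1.49 to -0.69). Over both lines it was -0.95 (SE 0.11, edgeR adjusted p = 0.000497), or 1.93-fold lower. SE here and below is the absolute log2 ratio divided by the square root of the test's F statistic. It is not a spread measured between cultures. The annotated span of Hspa5 overlaps that of Rabepk, and the strand setting of the counting is not given in the sources used here, so reads in the shared stretch cannot be told apart.

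Hsp90b1 (ENSMUSG00000020048, chr10:86690841-86705444) encodes GRP94, the Hsp90 of the ER. Its levels were 1103 and 951 CPM in the control and Usp5 guide inputs and 502 and 517 CPM in the RIP libraries. The 2 RIP libraries were thus close to each other and well below the inputs, and the share of all genes with this pattern was not counted. Its log2 ratios of RIP over input were -1.13 (scatter interval -1.55 to -0.73) and -0.88 (-1.31 to -0.45) in control and Usp5 guide cells, and -1.01 over both lines (SE 0.12, edgeR adjusted p = 0.000430).

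Hyou1 (ENSMUSG00000032115, chr9:44379490-44392369), GRP170, a large Hsp70-like protein that exchanges nucleotide on BiP, differed from its partner. It had 254 and 245 CPM in the control and Usp5 guide inputs and 279 and 229.8 CPM in the RIP libraries, so that inputs and RIP libraries overlapped. The log2 ratio of RIP over input was 0.14 in control cells (scatter interval -0.25 to 0.55) and -0.09 in Usp5 guide cells (-0.50 to 0.33). Over both lines it was 0.02 (SE 0.14, edgeR adjusted p = 0.931). In each line its scatter interval did not overlap that of Hspa5. The difference between the genes was not tested, and they lie in different classes of abundance (mean log2 CPM 7.97 for Hyou1 and 9.76 for Hspa5). Xbp1, like Hyou1, had no low call in the test and is described below.

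Dnajb9 (ENSMUSG00000014905, chr12:44205897-44210068) encodes ERdj4, a J-domain co-chaperone of BiP. It had the lowest ratio of the 10 in both lines. Its reads were few: 999 and 723 in the control and Usp5 guide inputs and 222 and 272 in the RIP libraries. These are 35.0 and 23.5 CPM in the inputs and 6.22 and 8.58 CPM in the RIP libraries. The fractions did not overlap, but the share of all genes with this pattern was not counted. RIP over input was 5.61-fold lower in control cells (log2 ratio -2.49, scatter interval -3.65 to -1.37) and 2.73-fold lower in Usp5 guide cells (-1.45, -2.62 to -0.25). Only 2.46% of the genes compared had a lower ratio in control cells and 6.95% in Usp5 guide cells. Over both lines the log2 ratio was -1.97 (SE 0.39, edgeR adjusted p = 0.00543).

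The lectin chaperones Calr and Canx fold glycoproteins, Calr in the lumen and Canx from the membrane. Calr (ENSMUSG00000003814, chr8:84842088-84846931) had 1393 and 1414 CPM in the control and Usp5 guide inputs and 807 CPM in each RIP library. Its ratios hardly differed between the lines, at -0.79 (scatter interval -1.24 to -0.32) and -0.81 (-1.25 to -0.35) on the log2 scale. Canx (ENSMUSG00000020368, chr11:50293957-50325673) had 2851 and 2407 CPM in the inputs and 1292 and 1354 CPM in the RIP libraries, the most reads of the 10 in all 4 libraries. Its log2 ratios of RIP over input were -1.14 (-1.47 to -0.81) in control and -0.83 (-1.17 to -0.48) in Usp5 guide cells. Over both lines the log2 ratios of Calr and Canx were -0.80 (SE 0.10) and -0.99 (SE 0.10), with edgeR adjusted p-values of 0.000597 and 0.000246.

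The 3 disulfide isomerases were lower in RIP as well. Pdia3 (ENSMUSG00000027248, chr2:121413902-121438687), ERp57, which works with Calr and Canx, had 823 and 781 CPM in the control and Usp5 guide inputs and 472 and 508 CPM in the RIP libraries. Pdia4 (ENSMUSG00000025823, chr6:47796141-47813512), ERp72, had 426 and 296 CPM in the inputs and 209 and 193 CPM in the RIP libraries. Pdia6 (ENSMUSG00000020571, chr12:17266589-17284785), P5, had 254 and 244 CPM in the inputs and 187 and 168 CPM in the RIP libraries. Inputs and RIP libraries did not overlap for any of the 3 genes, but the share of all genes with this pattern was not counted. Over both lines the log2 ratios were -0.71 (SE 0.12) for Pdia3, -0.82 (SE 0.15) for Pdia4 and -0.49 (SE 0.14) for Pdia6, with edgeR adjusted p-values of 0.00218, 0.00337 and 0.0338. Pdia6 was the least depleted of the 8 and did not pass with library totals (log2 ratio -0.33, adjusted p = 0.137), with genes kept from 10 reads (adjusted p = 0.0548) or without the line as a block (adjusted p = 0.0515). The annotated spans overlap those of Catsper2 (Pdia3), Mir704 (Pdia4) and Atp6v1c2 (Pdia6).

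**Figure D3:**
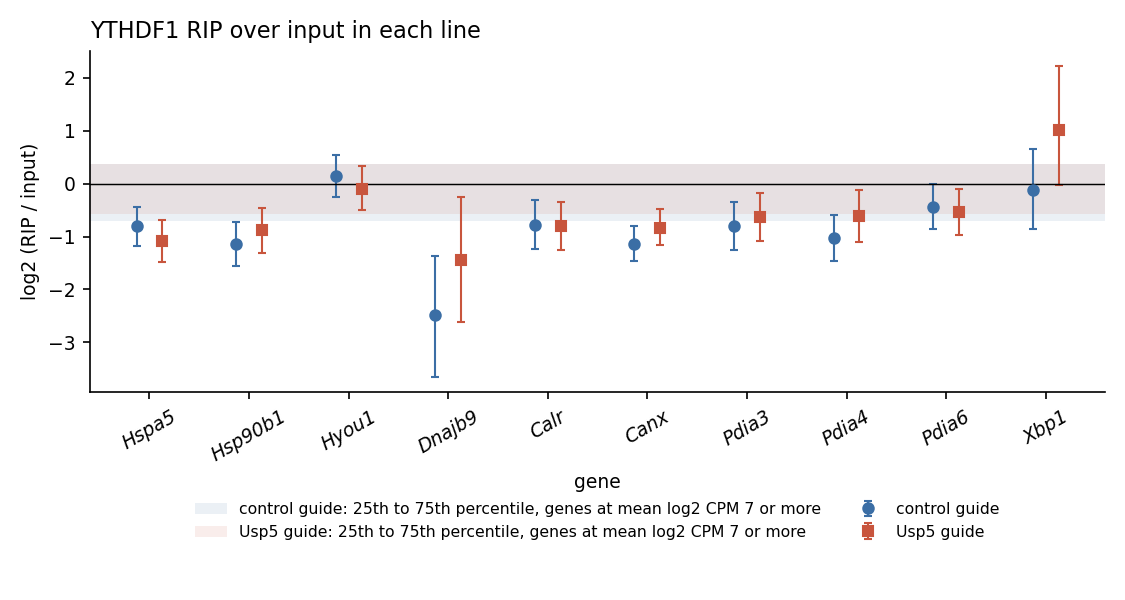
Log2 ratio of RIP over input (y axis) of each gene in control (blue circles) and Usp5 guide cells (red squares), 1 pair of libraries each; bars are scatter intervals and the shaded bands span the 25th to the 75th percentile of the 1722 genes at a mean log2 CPM of 7 or more. Intervals of 8 genes lie below 0 in both lines; those of Hyou1 and Xbp1 include 0.

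Set among the 5126 genes at a mean log2 CPM of 5 or more, most of the 8 members there lay in the lower part. These genes are not matched in abundance to the 8 members, which all lie at 7 or more. The median log2 ratio over both lines was 0.03 in the class of 5 to 6 and -0.22 in that of 9 to 10. Part of a low share can therefore reflect abundance, and shares within single classes were not computed. In control cells, the share of the 5126 genes with a lower ratio was 7.73% for Canx, 7.88% for Hsp90b1, 10.4% for Pdia4 and 31.1% for Pdia6. Hspa5, Pdia3 and Calr lay between 16.8% and 17.7%. In Usp5 guide cells the share was 6.05% for Hspa5, 11.1% for Hsp90b1, 12.5% for Canx and 24.4% for Pdia6. Calr, Pdia3 and Pdia4 lay between Canx and Pdia6. Hyou1 was near the middle, at 59.0% and 46.9%.

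**Figure D4:**
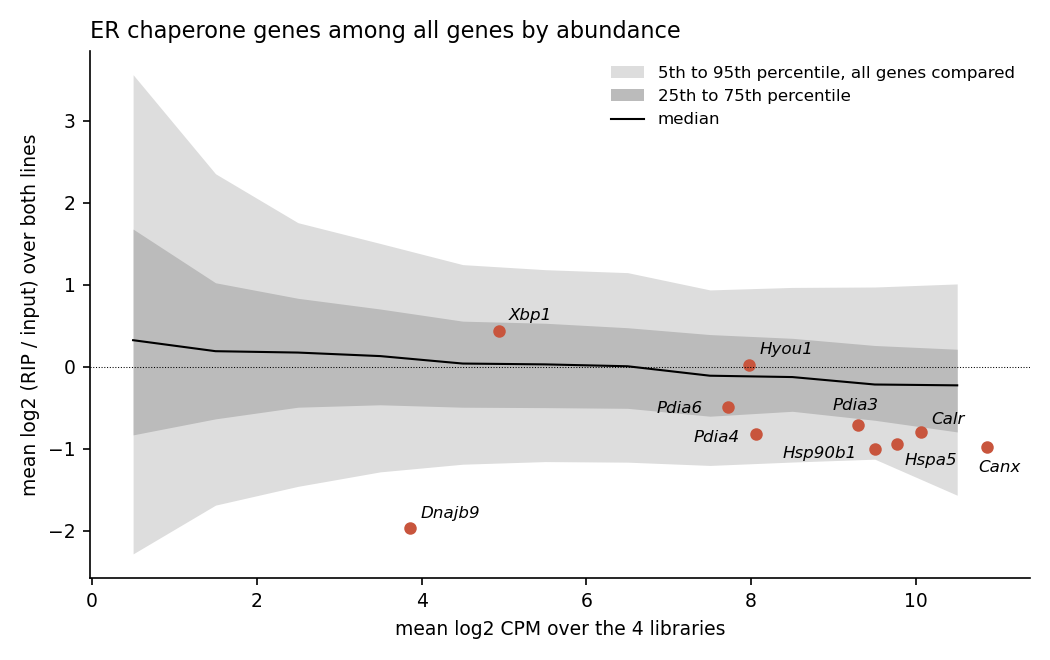
Mean log2 ratio of RIP over input over both lines (y axis) against mean log2 CPM over the 4 libraries (x axis); red points are the 10 genes, the line is the median and the bands the 25th to 75th and 5th to 95th percentiles of all genes in classes of 1 log2 unit. Dnajb9 lies below the 5th percentile of its class, Hyou1 and Xbp1 lie above the median, and Canx lies beyond the midpoint of the last class drawn.

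The inputs were then compared to ask whether the level of these RNAs differed with the Usp5 guide. The scatter intervals of 8 of the 10 log2 ratios included 0, and those of Xbp1 and Pdia4 lay below it. Of all genes, 3.34% had a scatter interval that excluded 0 in either direction, and 6.85% of those at a mean log2 CPM of 7 or more. The scatter was measured between these same inputs, so most genes include 0 by construction. The median log2 ratio of the 10 genes was -0.14, beside -0.01 over all genes and -0.05 over genes at a mean log2 CPM of 7 or more. In bulk RNA, fewer cells of a kind and less RNA per cell cannot be told apart.

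Xbp1 (ENSMUSG00000020484, chr11:5520641-5525993) had the largest difference. It encodes the transcription factor of the unfolded protein response whose mRNA is spliced in the cytoplasm by IRE1; counts per gene do not separate the spliced from the unspliced form. Its reads numbered 1191 in control and 508 in Usp5 guide input, or 41.7 and 16.5 CPM, which is 2.53-fold lower (log2 ratio -1.34, scatter interval -2.65 to -0.15). In the RIP libraries it had 1368 and 1051 reads, or 38.3 and 33.2 CPM (log2 ratio -0.21, -0.76 to 0.34). The Usp5 guide input was thus low, while the other 3 libraries lay close together. Xbp1 was the 1 member at least 2-fold lower in the inputs, where 12.1% of all genes were lower and 12.4% higher by this rule. In its class of abundance (a mean log2 CPM between 4 and 5, 1840 genes) 5.33% were lower, and 8.82% of all genes had a lower ratio.

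The chaperone genes, among them known targets of XBP1 and ATF6, had input ratios nearer to 0. Hspa5 was level between the inputs (log2 ratio 0.00, scatter interval -0.34 to 0.35), as was Calr (0.02, -0.54 to 0.59). Hyou1 (-0.05), Pdia6 (-0.06) and Pdia3 (-0.07) lay close to 0. Hsp90b1 had a log2 ratio of -0.21 (-0.59 to 0.16) and Canx -0.24 (-0.65 to 0.16). Pdia4 was 1.44-fold lower (-0.52, -1.01 to -0.04). Dnajb9, a known target of XBP1, had a ratio of -0.57, with a scatter interval from -1.76 to 0.57. The 5 genes whose promoter held an element, Hspa5, Hsp90b1, Calr, Canx and Pdia6, ranged from -0.24 to 0.02. The scatter intervals of these 5 reached from -0.65 to 0.59, so they do not show that levels were alike.

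Between the RIP libraries no member reached 2-fold in either direction, by a rule that 9.19% of all genes passed. Among the 5126 genes at a mean log2 CPM of 5 or more, only 2 were higher and 4 lower by this rule. Of the members, 8 lie at 7 or more, so the lack of calls does not set them apart. All 10 scatter intervals included 0. The scatter was measured between these same libraries, so most genes include 0 by construction. Intervals that excluded 0 were held by 4.13% of all genes and 6.04% of those at 7 or more. The log2 ratios of Usp5 guide over control ranged from -0.28 (Hyou1, -0.59 to 0.02) to 0.46 (Dnajb9, -0.68 to 1.63). Hspa5 was next to Hyou1 at -0.28 (-0.69 to 0.14), and the median was -0.06. Pdia4, lower in the Usp5 guide input, had a ratio of -0.11 here (-0.55 to 0.32).

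With both fractions in 1 fit and the fraction as a block, 0 of the 10 genes passed for the guide (edgeR's quasi-likelihood test, adjusted p under 0.05), as did 0.0232% of all genes (3 of 12920). At an unadjusted p under 0.05, 614 genes and 1 member, Xbp1, passed. Its log2 ratio in this edgeR fit was -0.77 (SE 0.32, adjusted p = 0.942), with lower values in both fractions. DESeq2's Wald test with the same terms also called 0 members. Input and RIP of a line came from 1 lysate, so this fit compares 1 lysate with 1 other and its p-values do not cover the spread between cultures.

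**Figure D5:**
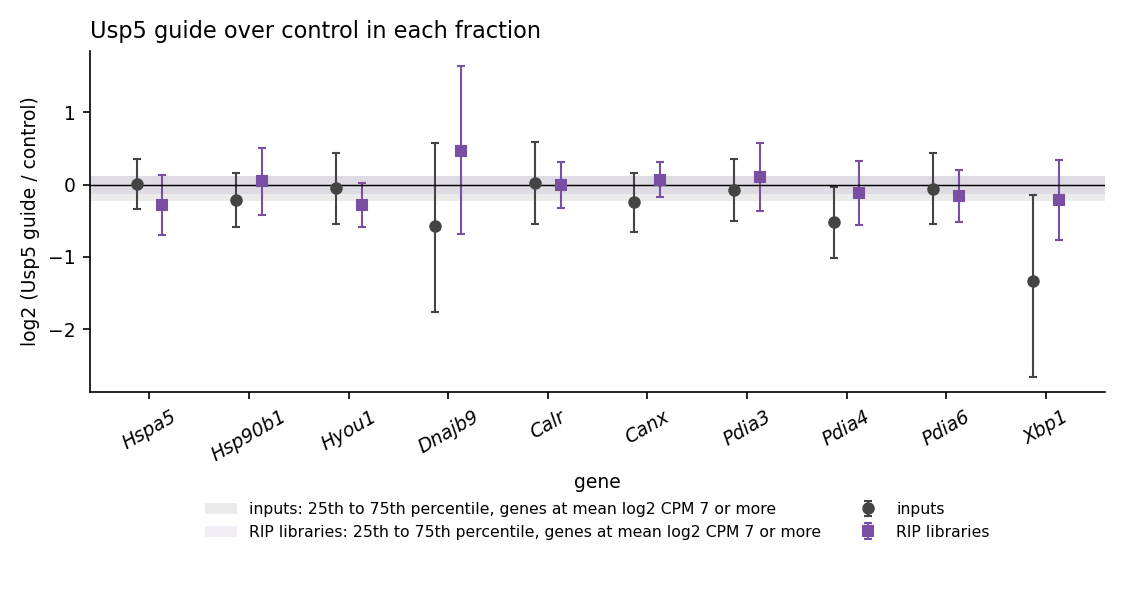
Log2 ratio of Usp5 guide over control (y axis) of each gene in the inputs (dark circles) and the RIP libraries (purple squares), 1 pair of libraries each; bars are scatter intervals and the shaded bands span the 25th to the 75th percentile of the genes at a mean log2 CPM of 7 or more. Only the input intervals of Xbp1 and Pdia4 exclude 0.

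The change of enrichment with the guide, RIP over input in Usp5 guide cells minus that in control cells, uses all 4 libraries and leaves no residual degree of freedom for a test. By size, 2 members were at least 2-fold higher, Xbp1 and Dnajb9, and none lower, where 13.3% of all genes were higher. Both are the least abundant members. In the classes of 2 to 4 and 4 to 5 mean log2 CPM, which hold Dnajb9 and Xbp1, 17.9% and 6.74% of genes were higher, against 0.0581% at 7 or more. For Xbp1 the log2 ratio of RIP over input was -0.12 in control cells (scatter interval -0.85 to 0.66) and 1.01 in Usp5 guide cells (-0.03 to 2.22), a difference of 1.13 (-0.09 to 2.35). The RIP libraries differed by -0.21 and the inputs by -1.34, so most of this difference lay between the inputs. For Dnajb9 the difference was 1.04 (-0.43 to 2.50), with -0.57 between the inputs and 0.46 between the RIP libraries. The other 8 members lay between -0.28 (Hspa5) and 0.41 (Pdia4). The scatter intervals of all 10 differences included 0, where 8.72% of all genes had one that did not. Among genes at a mean log2 CPM of 7 or more this share was 3.83%. The scatter was measured between these same libraries, so most genes include 0 by construction.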

How the data were processed

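RNA of 4 libraries of Hepa 1-6 cells was counted per gene. The authors deposited raw read counts in 1 table, made with HISAT2 2.1.0 and featureCounts 1.6.3 on mm10, per the submitters' processing notes; the sources used here do not state annotation release, strand, duplicates or multiple matches. Columns were matched by the short names in the labels, and 0 were left over. The reference table (49997 genes, GRCm38.p6) paired 0 Ensembl IDs, so the 10 members are named from the list that defined them, and marker genes, other pathway lists, Usp5, Ythdf1 and levels per length were not analysed here. Counts were TMM-normalised (edgeR 4.0.16, R 4.3.3; factors 0.926 to 1.06), 12920 genes averaging 1 CPM or more were kept, and log2 ratios were taken after adding 0.5 counts. Counting intervals applied Clopper-Pearson limits to the split of reads, or, for the change of enrichment, from summed reciprocal counts; scatter intervals used counts divided by the median excess scatter of the abundance class. Each input was paired with the RIP of its own lysate by the labels. All 10 members are named; code was tested on simulated data. Alternatives included DESeq2 1.42.0. Members, lists and settings were chosen with earlier results of these data known.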

Additional observations from a re-analysis of the deposited data

Results flagged for a closer look

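Some members moved in opposite directions in the 2 lines or the 2 fractions, with 1 library in each. These differences were not tested, and the scatter interval of each included 0, as those of most genes do by construction. RIP over input was on either side of 0 in the lines for Xbp1 (Usp5 guide minus control 1.13 on the log2 scale) and Hyou1 (-0.23). Usp5 guide over control was on either side of 0 in the fractions for Dnajb9 (RIP minus input 1.04), Canx (0.31), Hspa5 (-0.28), Hsp90b1 (0.26), Pdia3 (0.18) and Calr (-0.023). Some of these signs depend on the normalisation. With library totals, Xbp1 (0.06 and 1.13) and Hyou1 (0.32 and 0.04) were above 0 in control and Usp5 guide cells. With DESeq2 size factors, inputs and RIP libraries shared a sign for Hspa5 (-0.005 and -0.257) and Calr (0.014 and 0.018). Dnajb9, Canx, Hsp90b1 and Pdia3 kept opposite signs under both.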

How the results depend on the processing

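No called ratio of a member changed sign under the alternatives run. The edgeR test of RIP over both lines called 7 members lower with library totals, with genes kept from 10 reads, with genes averaging a log2 CPM of 5 or more (Dnajb9 and Xbp1 drop out) and with no replicate block, and 8 with DESeq2 size factors and DESeq2's Wald test. The guide test called 0 members throughout; its 3 genes became 14 (5 lower, 9 higher) from a log2 CPM of 5 and 22 (10 and 12) with DESeq2, 1 was lower from 10 reads, and 0 with no replicate block. Library totals shift the median of all genes to 0.21 and 0.15 in control and Usp5 guide RIP over input; the members' medians became -0.62 and -0.59, with 1 member 2-fold lower in each line, 1 with a 2-fold higher change of enrichment, medians of -0.079 (inputs) and 0.17 (change of enrichment), and 959 genes called lower in RIP in place of 1462. With DESeq2 size factors the control median was -0.85 and 0 members were 2-fold higher in Usp5 guide RIP. From a log2 CPM of 5, 1 member was lower and 0 higher in Usp5 guide RIP, 0 lower in the inputs and 0 higher in change of enrichment, with medians of -0.067 (inputs) and 0.079 (change of enrichment). At 1.5-fold, 7 members were lower in each line. Scatter intervals left 0 members 2-fold higher in Usp5 guide RIP and in change of enrichment. Levels per length could not be run. Counts over all genes depend on the filter: in control RIP over input, 2375 higher and 1944 lower became 4408 and 3070 from 10 reads, 453 and 563 from a log2 CPM of 5, 3809 and 3438 at 1.5-fold and 798 and 1018 with scatter intervals. In the same order, 2058 and 1771 in Usp5 guide cells became 4179 and 2811, 332 and 418, 3504 and 3233, and 632 and 795. In the inputs, 1597 and 1568 became 2785 and 2832, 52 and 46, 2577 and 2578, and 102 and 120. In the RIP libraries, 588 and 599 became 2116 and 2063, 2 and 4, 1234 and 1279, and 84 and 96. For the change of enrichment, 1716 and 1779 became 75 and 59, 2665 and 2801, and 514 and 502, and stayed within 1.5 times from 10 reads. Dnajb9 and Xbp1 had the fewest reads and the widest intervals of the members. Their scatter intervals were wider than counting error alone. For Dnajb9 RIP over input in control cells they ran from -3.65 to -1.37, and the counting interval from -2.71 to -2.28.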
